A study of Mus musculus with 6 samples.

Results

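The 83 genes described here are every interleukin and interleukin receptor gene of a kidney expression table, taken by symbol (those that begin with Il and a digit), of 22183 genes in the table. They were set in families by the cytokines they encode or bind: 20 in the IL-1 family, 17 in the common gamma chain family, 16 in the IL-6 and IL-12 family, 12 in the IL-10 family, 11 in the IL-17 family and 7 others. By role, 37 encode ligands, 38 receptor chains, and 7 decoy receptors, binding proteins or antagonists. The last, Il4i1, encodes an enzyme and carries the name only because interleukin-4 induces it. The RNA came from mouse kidney in 6 libraries. The 3 control libraries came from mice given the empty vector pcDNA3. The 3 Wnt1 libraries came from mice given a plasmid that carries Wnt1, which encodes a secreted Wnt protein able to signal through beta-catenin, and are labelled as overexpressing that gene. All 6 share the batch label 1. The labels give no strain, sex, age, injury procedure or time after plasmid delivery, and do not say which promoter drives Wnt1 or which kidney cells took up plasmid. Nothing in them says that each library is a separate animal, so the p-values speak to the spread between the samples at hand, and that spread may be technical.

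Interleukins are secreted proteins by which immune and tissue cells signal to each other, and each acts through a receptor of 2 or more chains that is often shared between cytokines. IL-1 family receptors signal through the adaptor MyD88 to NF-kappaB, and the family carries its own brakes in receptor antagonists and decoy receptors. The common gamma chain, IL-6 and IL-10 families act through Janus kinases and STAT transcription factors, and IL-17 receptors act through the adaptor Act1. In the kidney, interleukins of damaged tubule cells and of resident and arriving leukocytes are known to take part in inflammation and repair after injury.

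Expected counts summed to between 23585020 and 27218085 per library. Wnt1 itself had 0 counts in all control libraries and 1 count in the Wnt1 libraries together, so the gene on the plasmid did not check the labels. The second principal component of all tested genes, with 14.7% of the variance, separated the libraries numbered 3 (scores of -29.0 in control and -50.1 with Wnt1) from the other 4 (16.2 to 22.1). Levels below are CPM, counts scaled to a common library total with TMM factors, which correct the totals for differences in composition. Fold changes are log2 of Wnt1 over control with a standard error after ±, and adjusted p-values are edgeR's over all 14432 tested genes. Calls were made below 0.05. With library totals in place of TMM factors, the median over every tested gene went from 0.05 to 0.47, and the calls over all genes went from 3239 higher and 2697 lower to 6348 higher and 1288 lower.

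Interleukin receptors were higher with the Wnt1 plasmid far more often than lower, while most interleukin ligands had too few counts to test. Of the 83 members, 44 passed the filter on low counts and were tested. Of these, 31 were called in either direction, where 41.1% of all tested genes were. Higher levels with Wnt1 were called for 28, against 22.4% of all tested genes, and 3 were called lower (Il15, Il11ra1 and Il17ra), against 18.7%. The other 13 were not called. The 3 Wnt1 libraries lay above the 3 control libraries for 31 tested members and below them for 4, where 28.2% and 25.3% of all tested genes did so. A rise of at least 2-fold was called in 25 members, against 15.3% of all tested genes. The median log2 fold change of the tested members was 1.32, beside 0.05 for all tested genes.

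The filter let in some members through the Wnt1 libraries alone. The 12 members under the filter's CPM of 0.395, set on library totals before TMM factors, in at least 1 control library were Il36a, Il1rn, Il1rl1, Il1r2, Il18r1, Il7r, Il2ra, Il7, Il11, Il12rb1, Il20rb and Il4i1, and such genes could hardly be found lower. The remaining 32 members were above it in every control library, and 18 of them (56.2%) were called higher and 3 lower. Over all 13358 genes above it in every control library, 19.1% were called higher and 20.2% lower.

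**Figure D1:**
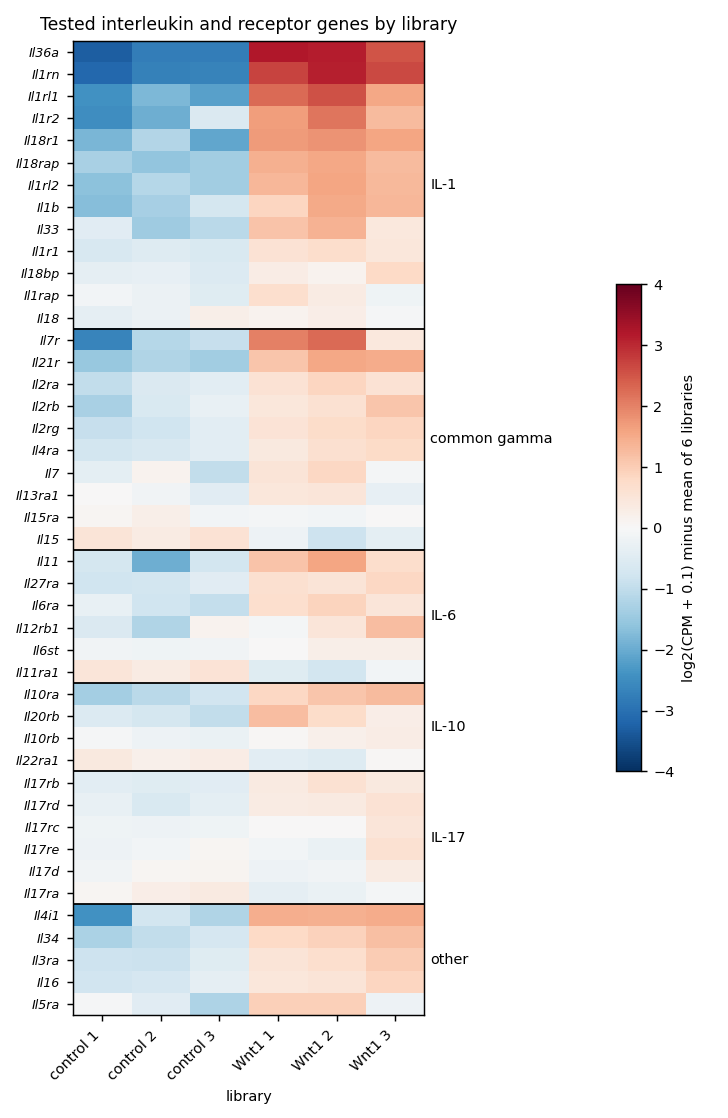
Level of each tested member in each library as log2(CPM + 0.1) minus the mean of the 6 libraries (color scale), with rows grouped by family and columns by library. The IL-1 rows have the widest range between groups, and the rows of Il15, Il11ra1 and Il17ra, called lower, run the other way. The row of Il22ra1, not called, also has every Wnt1 library below every control library.

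Ligands and receptors differed in how many could be measured. Of 37 ligands, 11 had 0 counts in all 6 libraries, 10 were tested, 6 were called higher (Il36a, Il1b, Il33, Il11, Il34 and Il16) and 1 lower (Il15). Of 38 receptor chains, 30 were tested, with 18 called higher and 2 lower. Over all tested genes, 22.4% were called higher and 18.7% lower. All 3 tested decoys and antagonists (Il1rn, Il1r2 and Il18bp) were called higher, but Il1rn and Il1r2 passed the filter only through the Wnt1 libraries. Il36rn, lower in every Wnt1 library than in every control library, was under the filter. A gene listed at 0 may still be present below 3 counts, which corresponds to between 0.0951 and 0.138 CPM depending on the library. The polyadenylated RNA of a whole kidney holds many cell types, and more cells of a type cannot be told apart from more RNA per cell.

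**Figure D2:**
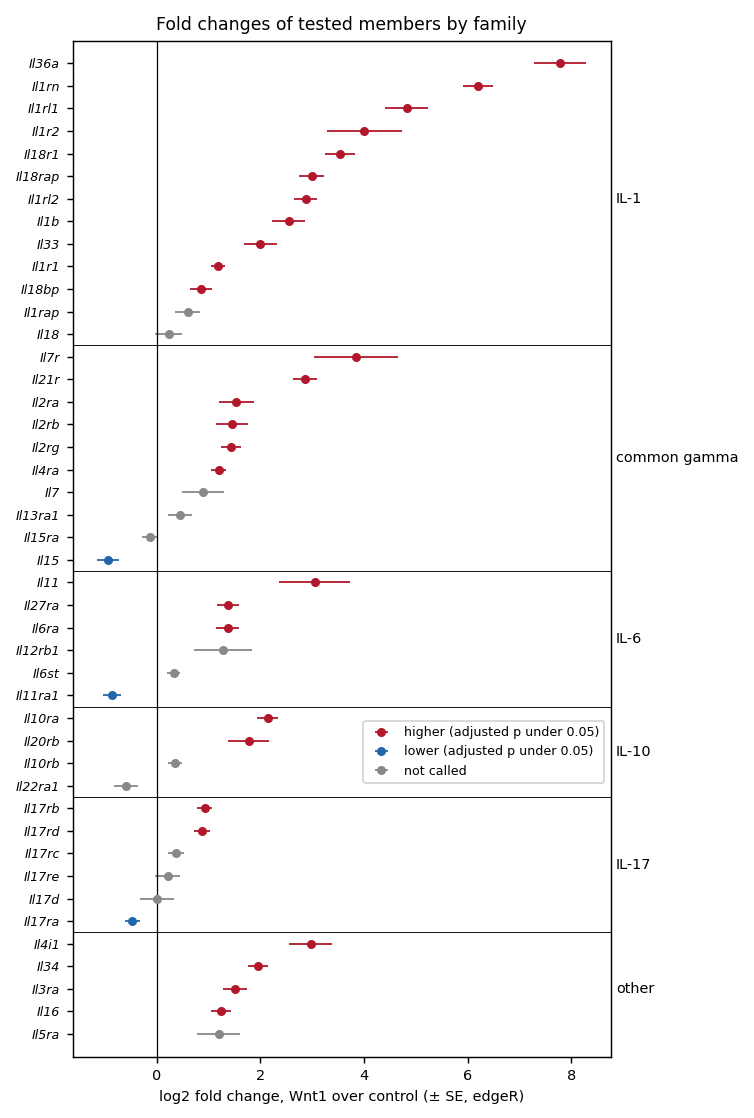
Log2 fold change of each tested member, Wnt1 over control, with its standard error as a bar, grouped by family. The 28 members called higher are red, the 3 called lower are blue and the 13 not called are grey.

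Per transcript length, on the scale of the deposited FPKM values, the most abundant members in control kidney were receptor chains. Il11ra1 stood at 49.0 ± 3.75 FPKM (SD, n = 3), Il6st at 33.2 ± 1.10, Il10rb at 25.9 ± 2.46, Il13ra1 at 14.4 ± 2.56 and Il17rc at 13.5 ± 0.428. In the Wnt1 libraries the order was Il6st at 58.4 ± 6.30 FPKM, Il10rb at 44.2 ± 3.68, Il34 at 43.1 ± 5.15 and Il11ra1 at 36.0 ± 6.95. Il13ra1 and Il17rc differed by less than the SD of Il13ra1 in control, and Il10rb and Il34 by less than the SD of either with Wnt1. Il34 was the only ligand above 20 FPKM in either group. FPKM values carry no factor for composition, so between the groups they lie higher with Wnt1 by about the shift seen with library totals.

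**Figure D3:**
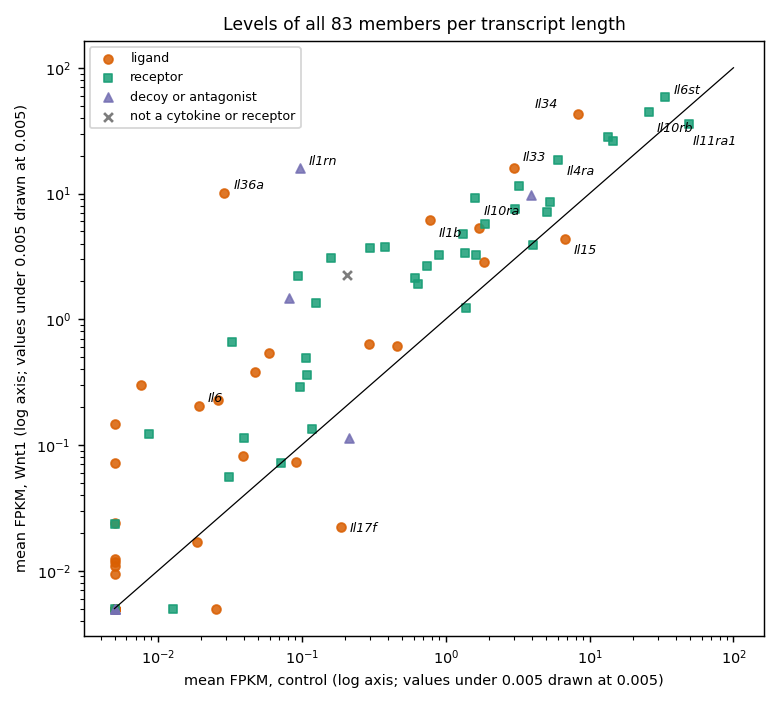
Mean FPKM of all 83 members in control (horizontal, log axis) against Wnt1 (vertical, log axis), with ligands, receptors, decoys or antagonists and Il4i1 marked by shape, and values under 0.005 drawn at 0.005. Il36a and Il1rn lie farthest above the diagonal of equal levels, and Il11ra1 and Il15 lie below it.

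The IL-1 family held the 3 largest fold changes of the tested members, those of Il36a, Il1rn and Il1rl1, all of which passed the filter only through the Wnt1 libraries. Of its 20 members, 13 were tested, 11 were called higher, against 22.4% of all tested genes, and 2 were not called, with a median log2 fold change of 2.87. Of the 8 above the filter in every control library, 6 were called higher, beside 19.1% of such genes. Among its ligands, Il36a, which encodes an epithelial cytokine of the IL-36 group, was at 0, 0.0443 and 0.0456 CPM in control and at 8.97, 8.53 and 5.58 CPM with Wnt1. It was close to absent in every control library and present in every Wnt1 library. Its counts summed to 2 in control and 671 with Wnt1, a ratio of 258 after scaling for library size (exact 95% interval for counting error only, 71.1 to 2134). edgeR gave an adjusted p of 4.03e-05.

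Il1b, the inflammatory IL-1 ligand made mainly by myeloid cells and matured by caspase-1, was at 0.828, 1.11 and 1.73 CPM in control and 5.36, 8.57 and 7.51 CPM with Wnt1. The groups did not overlap, and the log2 fold change was 2.54 ± 0.32 (adjusted p = 0.000618). Il33, an alarmin that damaged stromal, endothelial and epithelial cells release from the nucleus, was at 12, 6.16 and 7.76 CPM in control and 37.2, 44.0 and 22.5 CPM with Wnt1. It was the most abundant IL-1 ligand by CPM in every library and rose by 2.0 ± 0.33 (adjusted p = 0.00221). Wnt1 replicate 3 was the lowest of its group for Il36a and Il33.

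Other IL-1 ligands were scarce or did not pass. Il18, a cytokine that kidney epithelium also makes, was at 1.47, 1.64 and 2.28 CPM in control and 2.12, 2.34 and 1.86 CPM with Wnt1, so the groups overlapped (0.23 ± 0.26; adjusted p = 0.526). Il1a had 0, 3 and 1 counts in control and 17, 8 and 9 counts with Wnt1, under the filter. Il36g had 1 count in control and 36 with Wnt1 (ratio 27.7, interval 4.66 to 1123), also under the filter. Il36b had 0 counts in all 6 libraries.

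Of 8 receptor chains of the family, 6 were tested and 5 were called higher, against 22.4% of all tested genes. Of these chains, Il1rl1 and Il18r1 passed the filter only through the Wnt1 libraries. Il1rl1 encodes ST2, the receptor of IL-33, and was at 0.138, 0.266 and 0.183 CPM in control and 6.02, 7.40 and 3.64 CPM with Wnt1. Every Wnt1 library was far above every control library, and the log2 fold change was 4.83 ± 0.42 (adjusted p = 0.000118). Il1r1, the signalling receptor of both IL-1 ligands, was already present in control at 10.2, 11.2 and 10.3 CPM and reached 23.9, 25.8 and 22.0 CPM (1.18 ± 0.14; adjusted p = 0.00045). Il1rap, the coreceptor shared by the IL-1, IL-33 and IL-36 receptors, was at 8.87, 8.20 and 6.76 CPM in control and 15.3, 12.1 and 8.50 CPM with Wnt1. Its groups overlapped because Wnt1 replicate 3 lay below control replicate 1 (0.59 ± 0.24; adjusted p = 0.0825), and without Wnt1 replicate 3 the value was 0.78 (adjusted p = 0.00913).

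In GRCm38, 6 receptor genes of the family stand side by side on the plus strand of chromosome 1, from Il1r2 (40074079 to 40125231) to Il18rap (40515362 to 40551705), over 477.6 kb. In order they are Il1r2, Il1r1, Il1rl2, Il1rl1, Il18r1 and Il18rap, and all 6 were called higher, against 22.4% of all tested genes. Of these 6, Il1r2, Il1rl1 and Il18r1 passed the filter only through the Wnt1 libraries and could hardly be found lower. Il1rl2, the IL-36 receptor, was at 1.06, 1.55 and 1.28 CPM in control and 9.03, 10.7 and 8.84 CPM with Wnt1 (2.87 ± 0.22). Il18r1, the ligand-binding chain of the IL-18 receptor, was at 0.506, 0.842 and 0.411 CPM in control and 6.85, 7.40 and 6.30 CPM with Wnt1 (3.53 ± 0.29). Its accessory chain Il18rap was at 0.782, 0.620 and 0.730 CPM in control and 5.67, 6.23 and 5.08 CPM with Wnt1 (2.99 ± 0.24). Groups of control and Wnt1 libraries were separate for each of the 6 genes, with Wnt1 higher, as in 28.2% of all tested genes. The level in control ranged widely along the cluster, with Il1r1 above all its neighbours in every library.

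The other IL-1 cluster, on the plus strand of chromosome 2, was mixed. It runs over 198.3 kb from Il36b (24153161 to 24160519) to Il1rn (24336853 to 24351494), by way of Il36g, Il36a, Il36rn and Il1f10. Il36a and Il1rn were called higher. Il36rn, which encodes the antagonist of the IL-36 receptor, lies between them and was at 0.690, 0.354 and 0.456 CPM in control and 0.159, 0.212 and 0.152 CPM with Wnt1. Its Wnt1 libraries all lay below its control libraries, but it was under the filter and was not tested. Il36b and Il1f10 had 0 counts throughout.

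**Figure D4:**
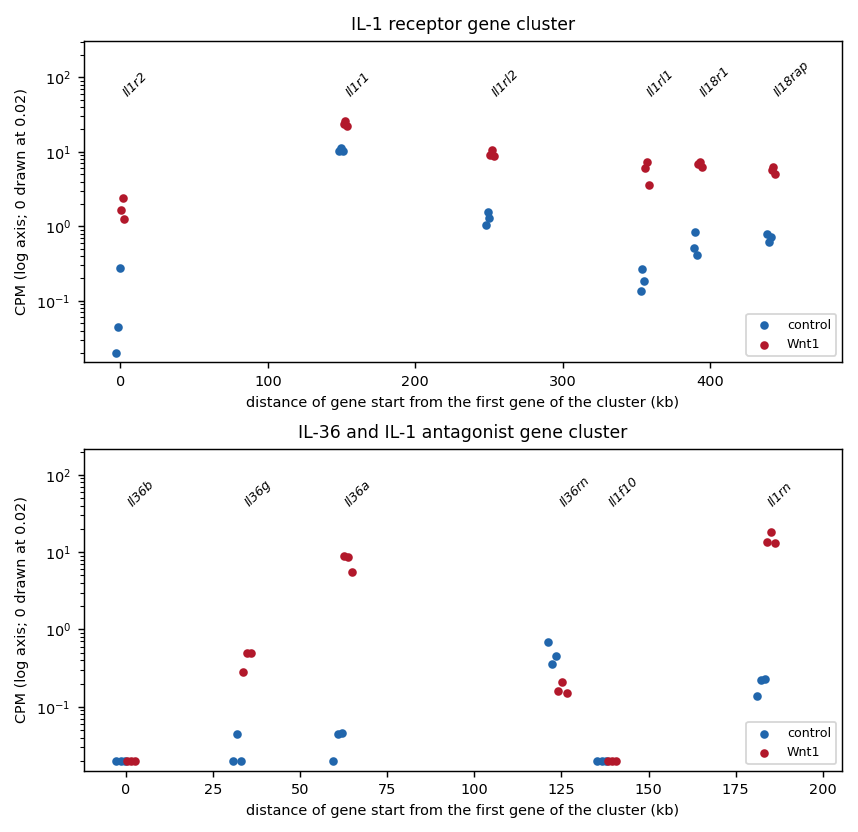
CPM (log axis, 0 drawn at 0.02) of each gene of the IL-1 receptor cluster (upper panel) and of the IL-36 and IL-1 antagonist cluster (lower panel) against distance of the gene start from the first gene, 1 point per library, points spread sideways for sight. All 6 receptor genes have every Wnt1 point above every control point, as did 28.2% of all tested genes. Of them, Il1r2, Il1rl1 and Il18r1 passed the filter only through the Wnt1 libraries. In the lower panel Il36rn runs the other way from Il36a and Il1rn.

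Of 5 antagonists and decoys of the family, the 3 tested were called higher, while Il36rn and Il1f10, given above, were not tested. Of the 3, only Il18bp was above the filter in every control library. Il1rn encodes the IL-1 receptor antagonist, which occupies IL1R1 without signalling, and was at 0.138, 0.222 and 0.228 CPM in control and 13.4, 18 and 13 CPM with Wnt1. No control library had more than 5 counts of it and no Wnt1 library fewer than 342. The log2 fold change was 6.20 ± 0.29 (adjusted p = 2.14e-05). Il1r2, a decoy receptor that binds IL-1 without signalling, was at 0, 0.0443 and 0.274 CPM in control and 1.68, 2.37 and 1.25 CPM with Wnt1 (4.0 ± 0.73; adjusted p = 0.00304). Of its 7 control counts, 6 came from control replicate 3, and without that library the log2 fold change was 6.11. Il18bp, the secreted binding protein of IL-18, was at 6.57, 6.73 and 5.75 CPM in control and 10.3, 9.31 and 14.9 CPM with Wnt1 (0.86 ± 0.22; adjusted p = 0.0144). The rise of Il18bp was the smallest of the called IL-1 members, with Wnt1 replicate 3 the highest.

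The balance of partners was read from FPKM within each library, where the scaling of libraries cancels. The ratio of Il1rn to Il1b was 0.103, 0.195 and 0.0894 in control and 2.55, 2.98 and 2.16 with Wnt1, so antagonist transcripts were fewer than Il1b transcripts in every control library and more in every Wnt1 library. On the log2 scale the mean went from -3.04 ± 0.60 to 1.35 ± 0.23 (SD, n = 3), a difference of 4.39. The two-sided exact permutation p was 0.1, the smallest that 3 against 3 libraries allow, and 0.133 after adjustment over the 4 ratios that could be computed. The ratio of Il18bp to Il18 went from 1.12 ± 0.24 to 1.76 ± 0.60 on the log2 scale and its groups overlapped (exact p = 0.2). Ratios of Il1r2 to Il1r1 and of Il13ra2 to Il13ra1 were not computed, since a partner was listed at 0 in at least 1 library.

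**Figure D5:**
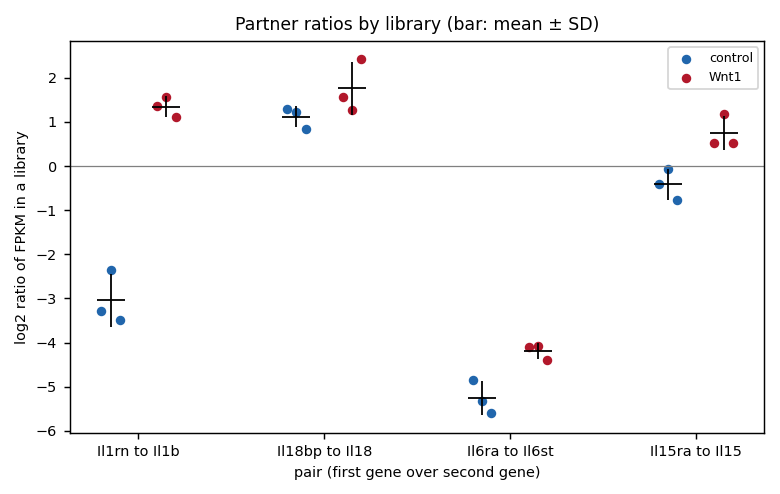
Log2 ratio of FPKM between partners in each library (points), with the mean and SD of each group (bars), for the 4 pairs with values in every library. The Il1rn to Il1b ratio crosses 0 between control and Wnt1, as does Il15ra to Il15, and the Il6ra to Il6st ratio is higher with Wnt1 but stays below 0.

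The sequences before the starts of 3 IL-1 genes are printed because these genes had large rises and because 1 of the 3 RefSeq windows of Il1rn and 1 of the 2 of Il1rl1 hold a match, while the others and the Il1b window hold none; the matching windows are shown. Each is the 250 bases before a RefSeq transcript start in GRCm38.p6, read 5′ to 3′ on the gene's strand, with motif matches in capitals. Il1rn (chr2:24336610-24336859, plus strand) holds an AP-1 match 135 to 141 bases before the start. Il1rl1 (chr1:40429320-40429569, plus strand) holds a C/EBP match 27 to 34 bases before the start. Il1b (chr2:129371140-129371389, minus strand) holds no match to the motifs searched in this window.
Il1rn: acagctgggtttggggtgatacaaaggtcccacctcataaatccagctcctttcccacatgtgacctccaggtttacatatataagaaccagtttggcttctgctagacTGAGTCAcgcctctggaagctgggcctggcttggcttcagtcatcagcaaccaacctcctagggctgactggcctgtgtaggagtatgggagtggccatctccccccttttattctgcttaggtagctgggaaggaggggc
Il1rl1: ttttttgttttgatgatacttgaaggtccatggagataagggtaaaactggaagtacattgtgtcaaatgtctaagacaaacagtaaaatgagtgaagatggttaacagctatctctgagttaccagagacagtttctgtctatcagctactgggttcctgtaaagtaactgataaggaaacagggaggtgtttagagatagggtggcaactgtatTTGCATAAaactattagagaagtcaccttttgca
Il1b: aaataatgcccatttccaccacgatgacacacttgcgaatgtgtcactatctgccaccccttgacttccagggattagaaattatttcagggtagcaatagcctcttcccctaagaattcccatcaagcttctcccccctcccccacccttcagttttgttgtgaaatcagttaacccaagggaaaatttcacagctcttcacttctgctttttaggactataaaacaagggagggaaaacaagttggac

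RefSeq windows were found for 66 of the 83 members, 23 of them among the 28 called higher, and 6 motifs were searched on both strands. The letters of no motif hold those of another, though matches may overlap in a sequence. The C/EBP letters TTGCNNAA were in 9 of 33 windows of members called higher (27.3%) and in 9.56% of all 32851 windows. Those 9 members were Il16, Il18bp, Il1r1, Il1rl1, Il1rl2, Il20rb, Il33, Il3ra and Il7r. The AP-1 letters TGANTCA were in 12.1% of the windows of members called higher and 6.75% of all windows. The NF-kappaB consensus was in 9.09% and 7.25%, the STAT letters TTCNNNGAA in 9.09% and 7.02%, and the TCF/LEF letters CTTTGAA in 3.03% and 4.46%. The CRE letters TGACGTCA were in 1.55% of all windows and in 0 of the 33. These shares are descriptions with no test, and a match is not a site.

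Signalling genes downstream of the IL-1 receptors and of the inflammasome, which matures IL-1 beta and IL-18, were split. Of 29 tested, 12 were called higher and 4 lower, against 22.4% and 18.7% of all tested genes, and the median log2 fold change was 0.30. Of the 12, Casp4, Nlrp1a, Nlrp1b and Aim2 were under the filter's CPM in at least 1 control library and could hardly be found lower. The inflammasome adaptor Pycard went from 11.3 ± 0.859 to 37.2 ± 5.88 CPM (1.72 ± 0.16; adjusted p = 0.000174). The pore-forming Gsdmd went from 2.68 ± 0.320 to 10.2 ± 1.61 CPM (1.92 ± 0.20), and the sensor Nlrp3 from 0.558 ± 0.0153 to 3.32 ± 0.685 CPM (2.56 ± 0.28). The 4 called lower were Peli2, Sigirr, Irak2 and Tollip. Sigirr, a member of the receptor family that dampens its signal, went from 76.7 ± 2.96 to 39.2 ± 6.66 CPM (-0.97 ± 0.15; adjusted p = 0.00158).

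In the common gamma chain family, 6 of 8 tested receptor chains were called higher, against 22.4% of all tested genes, and 5 of 7 ligands were under the filter. Of its 17 members, 10 were tested and 1 was called lower (Il15). Of the 7 members above the filter in every control library, 4 were called higher and 1 lower. Il2rg encodes the common gamma chain itself and was at 4.97, 5.45 and 7.12 CPM in control and 14.1, 15.9 and 17.5 CPM with Wnt1. The groups were separate, and the rise passed the test (1.44 ± 0.19; adjusted p = 0.000757). Il4ra, the chain shared by the IL-4 and IL-13 receptors, was the most abundant of those called higher, at 26.6, 28.1 and 32.9 CPM in control and 57.9, 68.2 and 74.1 CPM with Wnt1 (1.19 ± 0.15; adjusted p = 0.000591).

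The lymphocyte receptors of the family started from low levels. Il7r, the IL-7 receptor alpha chain of lymphocytes, was at 0, 0.177 and 0.228 CPM in control and 2.41, 2.87 and 0.721 CPM with Wnt1 (3.84 ± 0.81; adjusted p = 0.00683). Wnt1 replicate 3 was well below the other 2 and still above every control library, and without control replicate 3 the log2 fold change was 4.52. Il21r, the IL-21 receptor, was at 0.920, 1.15 and 1.00 CPM in control and 6.15, 8.36 and 8.0 CPM with Wnt1 (2.86 ± 0.23; adjusted p = 0.0001). Il2ra and Il2rb, the alpha and beta chains of the IL-2 receptor, rose by 1.54 ± 0.33 and 1.44 ± 0.31. Il2ra stayed under 1.3 CPM in every library. Beside these receptors, all 15 markers of T and NK cells tested were called higher, against 22.4% of all tested genes. Of the 15, Cd3d, Cd8b1, Trbc1, Klrb1c, Ncr1 and Gzma were under the filter's CPM in at least 1 control library. Such genes could hardly be found lower. The summed level of the markers went from between 12.8 and 16.3 CPM in control to between 37.3 and 52.5 CPM with Wnt1. The part of these cells in the receptor levels was not tested.

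Il15, a cytokine that supports NK cells and memory T cells and is made by kidney epithelium, ran against the rest of the family. It was at 9.06, 7.93 and 9.59 CPM in control and 5.45, 3.54 and 4.82 CPM with Wnt1, and every Wnt1 library lay below every control library. It fell by 0.94 on the log2 scale (-0.94 ± 0.21; adjusted p = 0.00859). With library totals the value was -0.52 and the call was lost (adjusted p = 0.0592; range over the alternatives 0.000707 to 0.0592). Its partner Il15ra, which presents IL-15 to neighbouring cells, was at 9.24, 10.3 and 8.08 CPM in control and 8.31, 8.14 and 8.80 CPM with Wnt1 (-0.13 ± 0.16; adjusted p = 0.558), and its sign turned with library totals (0.29). Within libraries, where scaling cancels, the log2 ratio of Il15ra to Il15 in FPKM went from -0.41 ± 0.35 to 0.74 ± 0.38 (SD, n = 3), with separate groups (exact permutation p = 0.1, the smallest possible).

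Il7, a stromal cytokine of lymphocyte survival, was at 0.736, 1.11 and 0.456 CPM in control and 1.49, 1.84 and 0.948 CPM with Wnt1 (0.89 ± 0.41; adjusted p = 0.117), and called higher without Wnt1 replicate 3 (1.11; adjusted p = 0.043). Il13ra1, the IL-13 receptor chain that signals with Il4ra, was at 70.8, 63.8 and 51.2 CPM in control and 96.1, 99.4 and 56.7 CPM with Wnt1. The libraries numbered 3 were the lowest of each group, and the groups overlapped (0.44 ± 0.23; adjusted p = 0.17). Without both of them the log2 fold change was 0.54 (adjusted p = 0.00106). The decoy Il13ra2 had 0 counts in all libraries. Of the ligands that act on these receptors, Il4 and Il13 had 1 count each over all libraries, Il2 had 6, all with Wnt1, and Il9 and Il21 had 0. Il9r had 1 count in control and 19 with Wnt1 (ratio 14.6, interval 2.32 to 607).

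Genes that respond to IL-4 and IL-13 or mark type 2 responses were measured from a list beside these receptors. Of 11 tested, 8 were called higher, against 22.4% of all tested genes, and 3 were not called (Gata3, Stat6 and Clca1). Arg1, the arginase of alternatively activated macrophages, went from 0.213 ± 0.148 to 8.10 ± 3.13 CPM (5.22 ± 0.54; adjusted p = 0.000272), Mrc1, a macrophage mannose receptor, from 5.41 ± 1.49 to 70.9 ± 32.5 CPM (3.71 ± 0.41), and Postn, a matrix protein of fibroblasts, from 2.41 ± 0.807 to 20.9 ± 6.82 CPM (3.11 ± 0.34). Markers of group 2 innate lymphoid cells, a source of IL-5 and IL-13, had 1 called higher (Klrg1) and 1 called lower (Calca) of 5 tested, near the 22.4% and 18.7% of all tested genes. Their summed level was between 33.3 and 55.6 CPM in control and between 34.6 and 55.8 CPM with Wnt1, and was mostly that of Rora and Gata3, which other kidney cells also express. Klrg1 went from 0.0905 ± 0.0455 to 0.582 ± 0.183 CPM, and Areg, under the filter, from 0.0459 ± 0.0460 to 0.434 ± 0.181 CPM.

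The IL-6 and IL-12 family had 6 of 16 members tested, with 3 called higher, against 22.4% of all tested genes, 1 lower, against 18.7%, and 2 not called. Of the 4 above the filter in every control library, without Il11 and Il12rb1, 2 were called higher and 1 lower. Il11, a stromal and epithelial cytokine linked to fibrosis, had 3, 0 and 3 counts in control and 24, 30 and 14 counts with Wnt1, or 0.138, 0 and 0.137 CPM against 0.761, 1.06 and 0.531 CPM. The groups were separate at a low level throughout (3.05 ± 0.68; adjusted p = 0.00779). Il6 itself was scarcer, with 1, 1 and 0 counts in control and 10, 5 and 2 with Wnt1 (ratio 6.53, interval 1.55 to 58.3), under the filter. Il23a, the IL-23 subunit of its own, had 1, 2 and 2 counts in control and 10, 9 and 19 with Wnt1, also under the filter. Il12a had 1 count over all libraries, and Il31 had 0.

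The receptors of IL-6 and IL-11 moved in opposite directions. Il6ra, the IL-6 receptor, was at 6.90, 4.92 and 4.38 CPM in control and 13.7, 16.1 and 12 CPM with Wnt1, with separate groups (1.37 ± 0.22; adjusted p = 0.0019). Il11ra1, the IL-11 receptor, was at 112, 100.2 and 117 CPM in control and 58.0, 47.9 and 75.1 CPM with Wnt1, also separate (-0.86 ± 0.18; adjusted p = 0.00621). On log2(FPKM + 1) with no filter, limma gave -0.45 and the call was lost (adjusted p = 0.0531; range over the alternatives 5.72e-05 to 0.0531). The near-identical copy Il11ra2 had 24 counts over all libraries and may share reads with it. Both use gp130, encoded by Il6st, as the signalling chain. Il6st was the most abundant member by CPM, at 259, 254 and 262 CPM in control and 291, 339 and 340 CPM with Wnt1.

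Every Wnt1 library lay above every control library for Il6st, yet the rise did not pass the threshold (0.32 ± 0.12; adjusted p = 0.0629). It passed under 9 of 16 alternatives, among them without both libraries numbered 3 (0.29; adjusted p = 0.038). The log2 ratio of Il6ra to Il6st in FPKM was -5.25 ± 0.38 in control and -4.19 ± 0.18 with Wnt1 (SD, n = 3), with separate groups (exact permutation p = 0.1, the smallest possible). Il27ra, the IL-27 receptor of T and other lymphoid cells, rose from between 1.70 and 2.19 CPM to between 4.43 and 5.50 CPM (1.37 ± 0.22; adjusted p = 0.00182). Il12rb1, shared by the IL-12 and IL-23 receptors, was at 0.322, 0.177 and 0.593 CPM in control and 0.507, 0.779 and 1.40 CPM with Wnt1, with overlap (1.28 ± 0.55; adjusted p = 0.0989).

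Cytokines and receptors under other names that share gp130 or other chains with the interleukins were measured as a list. Of these partners and kin, 13 of 18 tested genes were called higher and 1 lower, against 22.4% and 18.7% of all tested genes, and the median log2 fold change was 1.47. Lif, leukemia inhibitory factor, went from 0.361 ± 0.0837 to 12 ± 3.51 CPM (5.03 ± 0.33; adjusted p = 4.27e-05), and Clcf1, another gp130 ligand, from 2.31 ± 0.270 to 18.3 ± 2.99 CPM (2.99 ± 0.20). Csf2rb, the beta chain shared by the IL-3, IL-5 and GM-CSF receptors, went from 3.49 ± 0.0507 to 21.4 ± 2.85 CPM (2.62 ± 0.17; adjusted p = 4.27e-05). Furin, a protease of the secretory pathway, was the 1 called lower (-0.70 ± 0.16).

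Of 25 Janus kinase, STAT and SOCS genes tested, 7 were called higher and 4 lower, shares near the 22.4% and 18.7% of all tested genes, with a median of 0.28. Socs3, the feedback inhibitor of gp130 signalling, went from 3.81 ± 0.297 to 55.5 ± 9.69 CPM (3.86 ± 0.19; adjusted p = 2.22e-05). Stat3, the STAT that gp130 activates, went from 98.3 ± 2.93 to 222 ± 17.4 CPM (1.17 ± 0.12; adjusted p = 0.000225). The 4 called lower were Stat5b, Cish, Socs5 and Socs7. Cish, a target of STAT5, went from 76.5 ± 28.7 to 33.7 ± 6.26 CPM (-1.18 ± 0.27; adjusted p = 0.0102).

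In the IL-10 family the ligands were at or near 0 and the receptors were measured. Il10, the anti-inflammatory cytokine, had 0 counts in all 6 libraries, as did Il20, Il22 and Il22b, a near-identical copy of Il22. Il24 had 0 counts in control and 2, 4 and 4 with Wnt1, near the floor. Il10ra, the IL-10 receptor chain of leukocytes, was at 5.06, 6.07 and 7.67 CPM in control and 23.3, 28.0 and 31.6 CPM with Wnt1. The groups were far apart, and the log2 fold change was 2.14 ± 0.21 (adjusted p = 0.000182). Its partner Il10rb, which most tissues carry and which the IL-22 receptor also uses, was at 60.2, 54.1 and 51.9 CPM in control and 63.8, 71.2 and 77.3 CPM with Wnt1 (0.35 ± 0.13; adjusted p = 0.0643).

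Receptors of epithelial cells in this family went different ways. Il20rb, a chain of the IL-20 and IL-24 receptors, was at 0.414, 0.354 and 0.274 CPM in control and 1.65, 1.13 and 0.797 CPM with Wnt1 (1.77 ± 0.40; adjusted p = 0.00867). Il22ra1, the IL-22 receptor of epithelium, was at 4.37, 3.85 and 4.11 CPM in control and 2.44, 2.27 and 3.45 CPM with Wnt1. Its groups did not overlap, but the difference did not pass (-0.60 ± 0.23; adjusted p = 0.0752), and it passed without Wnt1 replicate 3 (-0.80; adjusted p = 0.0119). Beside it, 11 of 12 proximal tubule markers and 10 of 12 markers of other nephron segments were called lower, against 18.7% of all tested genes. The 2 sets of markers had medians of -2.27 and -0.93. Their part in the levels of epithelial receptors was not tested.

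The IL-17 family had the lowest median log2 fold change of the 5 families, 0.29 over 6 tested members. Of these, 2 were called higher, 1 lower and 3 not called. Counts this small are near the 22.4% higher and 18.7% lower of all tested genes. Il17rb, the receptor of IL-25, was at 7.45, 7.04 and 7.21 CPM in control and 12.7, 15.3 and 13.2 CPM with Wnt1 (0.92 ± 0.15; adjusted p = 0.00216). Il17rd, an inhibitory relative also known as Sef, was at 14.2, 11.5 and 13.1 CPM in control and 22.1, 22.5 and 26.1 CPM with Wnt1 (0.87 ± 0.15; adjusted p = 0.00272). Il17ra, the chain shared by the IL-17 receptors, was at 32.5, 37.2 and 39.3 CPM in control and 24, 25.5 and 29.0 CPM with Wnt1. The groups were separate and the change passed (-0.47 ± 0.14; adjusted p = 0.0283), but the call was lost under 9 of 16 alternatives, and with library totals the value was -0.05 (adjusted p = 0.736; range over the alternatives 0.00355 to 0.811). Per length it stood at 4.05 ± 0.321 FPKM in control and 3.90 ± 0.299 FPKM with Wnt1.

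The remaining chains and ligands of the IL-17 family did not pass. Il17rc, the partner of Il17ra, was at 23.9, 23.7 and 24.3 CPM in control and 27.5, 27.5 and 37.9 CPM with Wnt1 (0.37 ± 0.16; adjusted p = 0.105). Il17re, the epithelial receptor of IL-17C, was at 12.7, 13.8 and 15.6 CPM in control and 13.8, 12.4 and 22.6 CPM with Wnt1 (0.21 ± 0.24; adjusted p = 0.524), and its sign turned without Wnt1 replicate 3 (-0.10). For both, that library was the highest of its group. Il17f had 7, 4 and 5 counts in control and 1, 0 and 1 with Wnt1 (ratio 0.0961, interval 0.0107 to 0.409), under the filter. Il17a had 2 counts over all libraries, and Il25 and Il17b had 0.

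Targets and signalling genes of the IL-17 receptors, which other inflammatory signals also induce, were higher in most cases. Of 18 tested, 14 were called higher, against 22.4% of all tested genes, and 4 were not called, with a median of 2.18. Of those called higher, Cxcl1, Cxcl2, Cxcl5, S100a8, S100a9 and Mmp3 were under the filter's CPM in at least 1 control library. Such genes could hardly be found lower, and all of them lay above that median. Lcn2, an antimicrobial lipocalin that is also on the list of injured tubule markers, went from 4.93 ± 0.503 to 369 ± 92.1 CPM (6.22 ± 0.24; adjusted p = 1.45e-05). The neutrophil chemokines Cxcl5 and Cxcl2 went from 0.0148 ± 0.0256 and 0.0153 ± 0.0265 CPM to 6.03 ± 1.38 and 4.0 ± 0.431 CPM.

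Members outside these families included the most abundant ligand. Il34, a ligand of the macrophage growth factor receptor CSF1R, was at 13.5, 16.1 and 20.1 CPM in control and 56.5, 61.1 and 74.4 CPM with Wnt1. The groups were far apart, and the log2 fold change was 1.95 ± 0.19 (adjusted p = 0.000189). Il16, whose product attracts CD4+ cells, was at 5.66, 6.07 and 7.53 CPM in control and 13.4, 14.1 and 17.8 CPM with Wnt1 (1.23 ± 0.19; adjusted p = 0.0015). Il4i1, an amino acid oxidase secreted by antigen-presenting cells, was at 0.184, 0.798 and 0.548 CPM in control and 3.99, 3.97 and 4.14 CPM with Wnt1 (2.97 ± 0.41; adjusted p = 0.000934).

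Il3ra, the alpha chain of the IL-3 receptor, was at 1.84, 1.77 and 2.33 CPM in control and 4.82, 5.31 and 6.83 CPM with Wnt1 (1.51 ± 0.24; adjusted p = 0.00162). Il5ra, the IL-5 receptor chain of eosinophils and B cells, was at 2.71, 2.04 and 1.14 CPM in control and 5.52, 5.56 and 2.43 CPM with Wnt1 (1.2 ± 0.42; adjusted p = 0.0512). In both groups replicate 3 was the lowest for Il5ra. The ligand Il3 had 0 counts and Il5 had 1 count over all libraries.

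Markers of leukocytes, stroma and other kidney cells were measured beside these receptors and cytokines, and the lists differed. Of 15 macrophage markers, 13 were called higher and 1 lower (Mertk), against 22.4% and 18.7% of all tested genes. The summed level of the markers went from between 315 and 368 CPM in control to between 1901 and 2273 CPM with Wnt1. Lyz2, the lysozyme of myeloid cells, went from 44.8 ± 7.14 to 879 ± 64.4 CPM (4.30 ± 0.17; adjusted p = 1.45e-05). Of 11 neutrophil markers, 4 were tested and called higher, against 22.4% of all tested genes. Of the 4, only Csf3r was above the filter's CPM in every control library. S100a8, S100a9 and Cxcr2 passed through the Wnt1 libraries and could hardly be found lower. Sums over the list were 1.24 to 1.52 CPM in control and 13.8 to 19.8 CPM with Wnt1. Over all libraries, Ly6g had 2 counts, Mpo and Elane 1 each and Camp 0. Of 8 dendritic cell markers, 7 were called higher (sums of 19.3 to 21.2 and 46.7 to 58.8 CPM), against 22.4% of all tested genes. Of the 7, Siglech and Ccr7 were under the filter's CPM in at least 1 control library and could hardly be found lower. Of 5 tested B and plasma cell markers, 3 were called higher, against 22.4% of all tested genes. Of the 3, Cd22 and Jchain were under the filter's CPM in at least 1 control library and could hardly be found lower. Ms4a1 and Pax5 were among the markers of this list that did not pass the filter and were not tested. Nearly all of the summed level (146 to 220.0 and 215 to 273 CPM) was Xbp1, at 174 ± 37.7 and 224 ± 35.1 CPM and not called. Cd79a was not called either (-0.57 ± 0.50). Jchain, called higher, was at 15.2, 2.62 and 2.01 CPM with Wnt1, so mostly in Wnt1 replicate 1.

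Of 10 markers of mast cells, basophils and eosinophils, only Kit and Siglecf passed the filter, with Siglecf called higher and Mcpt8 at 0 counts throughout, and their summed level was 27.9 to 31.7 CPM in control and 24.9 to 28.8 CPM with Wnt1. Nearly all of that sum was Kit (29.5 ± 1.89 and 26.0 ± 1.94 CPM), while Siglecf went from 0.0153 ± 0.0265 to 0.473 ± 0.0489 CPM. Siglecf was under the filter's CPM in every control library and could hardly be found lower. Of 10 fibroblast and mural cell markers, 8 were called higher (596 to 756 CPM in control, 2199 to 3548 CPM with Wnt1). Over all tested genes, 22.4% were called higher and 18.7% lower. Of 7 endothelial markers, 5 were called lower (716 to 880 CPM in control, 432 to 615 CPM with Wnt1). All 11 markers of injured tubule were called higher, with a median of 4.56. Some of them were under the filter's CPM in at least 1 control library. These could hardly be found lower, and they lay above that median. The part of each of these cell types in the levels of the interleukin and receptor genes was not tested.

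With both libraries numbered 3 left out, all 31 calls among members were kept and 5 were gained: Il1rap, Il13ra1, Il6st and Il5ra higher and Il22ra1 lower. Without Wnt1 replicate 3 alone, 31 calls were kept and 7 were gained, and the members called lower went from 3 to 5 with Il22ra1 and Il36rn.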

How the data were processed

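Kidney messenger RNA was sequenced in 3 control and 3 Wnt1 libraries. The submitters' processing notes list RSEM, HISAT2, Bowtie2 2.2.8, fastp 0.18.0 and StringTie 1.3.1, and mm10 as the build. Which step each performed, and whether strand was used, is information not given in the sources used here, so reads of genes on opposite strands that overlap may not be told apart. The authors deposited an expected count (estimated, not always whole) and an FPKM value, scaled by transcript length and library, for each gene and library. Counts were rounded before testing (9.02% lay over 1e-06 from a whole number).

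Members were matched by identifier to GENCODE M21 (GRCm38), and all 83 matched as protein coding. Counts were tested in R 4.3.3 with edgeR 4.0.16 (filterByExpr, TMM, robust quasi-likelihood, two-sided, Benjamini-Hochberg over 14432 genes). Fits were checked on simulated counts. Levels are CPM. Alternatives were DESeq2 1.42.0, other scalings and filters, limma 3.58.1 on log2(FPKM + 1) and log2(FPKM + 0.1), and left-out libraries. FPKM ratios used exact permutation tests. Counting intervals are exact at 95% and, as floors do, cover counting error only. Replicates differed beyond sampling noise.

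The members and lists (5 of pathways, 12 of cell type markers) were chosen with earlier results of these data known. Named members were a fixed set of ligands, receptors and antagonists plus up to 3 called members per family and direction with the largest change. From pathway lists, the named genes were up to 3 called with the smallest p in each direction, and from marker lists the 2 most abundant, of which some are given. Of the marker genes, 1 is not reported here by name. Il18r1, Il18rap, Il1rl2, Il36rn, Il36g, Il2rb, Il17f, Il9r, Il5ra and the other scarce ligands were named after their values were seen. Promoter sequences are from RefSeq (GRCm38.p6).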

Additional observations from a re-analysis of the deposited data

How the results depend on the processing

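Of 38 named members followed over 16 alternatives, 24 kept direction and call wherever they could be computed, 3 lost the call somewhere (Il15, Il11ra1 and Il17ra), 11 gained a call somewhere and 2 of these changed sign somewhere. Il15ra changed sign with library totals (0.29), limma on log2(FPKM + 1) with a filter (0.42) or without (0.42), limma on log2(FPKM + 0.1) (0.49), all 3 FPKM fits calling it higher (adjusted p = 0.0312 to 0.0468), and, among left-out libraries (-0.17 to 0.021), without control replicate 2. Il17re did so without both libraries numbered 3 (-0.023) and, among left-out libraries (-0.10 to 0.37), without Wnt1 replicate 3. Under library totals and FPKM, which lack a factor for composition, the median of all genes shifts upward. Of low members, the depth limits what can be tested.

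Over all genes, 6348 were higher and 1288 lower with library totals, 5177 and 1250 with log2(FPKM + 1), 5152 and 1245 with log2(FPKM + 0.1), and 5961 and 1292 with log2(FPKM + 1) and no filter. Without both libraries numbered 3, 4432 were lower. Leaving out each library gave 1797 to 3977 lower.

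Members called lower were 1 with library totals and 1 with FPKM and no filter, and 2 to 5 leaving out each library. The IL-17 members called lower were 0 with upper-quartile factors, library totals and both filtered FPKM fits, 2 without a filter, and 0 to 1 leaving out each library. Those called higher were 4 with library totals and 4 with both filtered FPKM fits. The common gamma members called lower were 0 with library totals and 0 with FPKM and no filter. The IL-6 members called higher were 5 with library totals, 5 without a filter and 6 with FPKM and no filter, where 0 were lower. The IL-10 members called higher were 1 with the strict filter and 4 with FPKM and no filter. Those called lower were 1 without both libraries numbered 3 and 0 to 1 leaving out each library. The IL-1 members called lower were 0 to 1 leaving out each library.

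The median log2 fold change of the tested members was 1.42 with upper-quartile factors, 1.74 with library totals, 1.44 without a filter, 1.25 with the strict filter, 1.09 with log2(FPKM + 1), 1.59 with log2(FPKM + 0.1) and 0.43 with FPKM and no filter. Leaving out each library gave 1.23 to 1.58. No paired analysis was possible because the replicate numbers come from the order of the records and pair no libraries. Where the cause of a change is not set by the scaling or filter itself, the cause was not tested.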
